A study of Mus musculus with 8 samples.

Results

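The 33 genes described here are listed as genes of the endothelial cells that line brain vessels and build the blood-brain barrier. Not all are made by endothelial cells alone, and other cells make Ets1, Slc7a5 and Slc22a8, among others. The 33 were read from a table of 55487 genes counted in mouse hypothalamus by matching their symbols to Ensembl identifiers. All were found and passed the filter on low counts. The study concerns the glucocorticoid receptor under low oxygen. The hypoxia group held 4 libraries from C57BL/6J mice kept for 2 hours in a chamber at 7% oxygen, the balance being nitrogen. The normoxia group held 4 libraries from mice of the same strain under normal conditions, given as 21% oxygen. All were untreated otherwise as far as the labels say, and the labels give neither genotype beyond the strain nor age.

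Brain endothelial cells are sealed to each other by tight junctions of claudins and occludin, which zonula occludens scaffold proteins tie to the cytoskeleton. They carry nutrients inward through dedicated transporters and pump drugs and metabolites back into the blood. Their identity rests on transcription factors of the ETS and SOX families, and the barrier itself is induced and kept by Wnt and norrin signals from neural cells through the receptor Fzd4. The whole hypothalamus was sequenced, so a lower level of such a gene can mean fewer endothelial cells or less RNA per cell, which cannot be told apart in bulk RNA.

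Total counts per library ran from 16994473 to 21694383, and the members had between 33 and 2833 counts in a library. Of the members, 26 had at least 100 counts in every library. The other 7, with the least precise values, were Sox7, Sox18, Fli1, Erg, Slc38a5, Icam2 and Emcn. The endothelial markers Cldn5, Pecam1, Tie1 and Cdh5 were present in every library. So were hypothalamic neuron markers, whose summed level was 691 to 818 CPM (read counts per library size, scaled by TMM) in hypoxia and 388 to 826 CPM in normoxia. Normoxia replicate 2 stood apart. It had the lowest sum of hypothalamic markers and 435 CPM of cortical and hippocampal markers, against 22.6 to 102 CPM in hypoxia and 34.3 to 86.2 CPM in the other 3 normoxia libraries. Pituitary markers summed to 59.3 CPM in hypoxia replicate 4 and 89.9 CPM in normoxia replicate 2, the highest of their groups.

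After 2 hours at 7% oxygen the barrier genes did not move as a block. Slco1a4, an organic anion transporter of the barrier, and Ocln, the tight junction protein occludin, fell by about a log2 of 0.48 each. No member was called higher. Mfsd2a, Slc7a5, Icam2 and Robo4 lay at the upper end of the fold changes and the transcription factors Sox18, Ets1 and Sox17 at the lower end, all without passing the test. Of 6 pan-endothelial core genes, Pecam1, Esam and Cdh5 had log2 changes of 0.07, −0.04 and −0.11, and Egfl7, Tie1 and Cldn5 of −0.17, −0.25 and −0.34, none of them called.

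Of the 33 members, 2 were called lower and 0 higher by edgeR's quasi-likelihood test, at a p under 0.05 after Benjamini-Hochberg adjustment across the 17047 tested genes. Of all tested genes 2.15% were called, 1.23% lower and 0.915% higher. At an unadjusted p under 0.05, 9 members were lower and 4 were higher, together 39.4% of the members, where 19.3% of all genes passed that limit. DESeq2 called 2 members higher, Mfsd2a and Slc7a5, and 3 lower, Slco1a4, Ocln and Ets1. Of the 16677 genes to which it gave an adjusted p, it called 6.04%, with 2.3% higher and 3.74% lower. The log2 change was negative in 22 members and positive in 11, and its median was −0.09, while the median of all genes tested was −0.01. Of all genes tested, 8827 had a negative and 8220 a positive log2 change. The groups did not overlap in 7 members, or 21.2%, against 13.4% of all genes. They were Slco1a4, Ocln, Ets1, Sox17 and Cldn5, with every hypoxia library below every normoxia library, and Mfsd2a and Robo4, with every hypoxia library above. Over all genes, 7.75% were lower without overlap and 5.69% were higher.

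**Figure D1:**
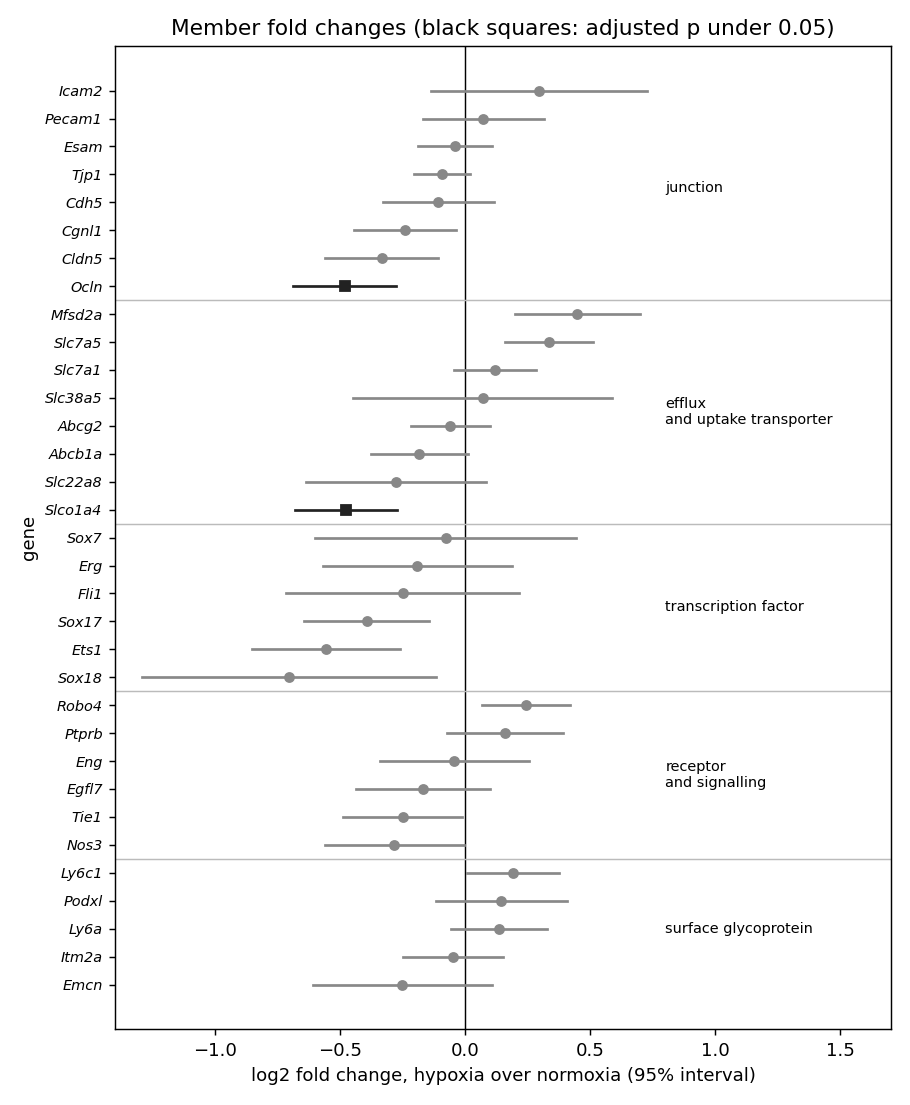
Log2 fold change of each member, hypoxia over normoxia (horizontal axis), with its 95% interval from the edgeR fit, grouped by role; black squares mark an adjusted p under 0.05. Ocln and Slco1a4 are the 2 called members, both near −0.48, and all 6 transcription factors lie left of 0.

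The promoter stretches of members without overlap are shown because these genes differed between the groups in opposite directions, so that their sequence features can be compared. Promoters were taken from RefSeq's annotation of GRCm38.p6, whose table held 28 start sites of 19 members, and 5 of the 7 genes were among them. Each stretch is up to 250 bases before the start site, written 5′ to 3′ on the gene's strand. That of Robo4 is 175 bases, cut where a GENCODE exon of the gene begins. The RefSeq start of Slco1a4 is not that of a GENCODE transcript. Of Ocln, which has a pair of start sites, the upstream one is given. Capitals mark matches on either strand to GGAAG, the core bound by ETS factors, to ACAAT, a core bound by SOX factors, and to ACGTG or GCGTG, the cores of the hypoxia response element. Matches may overlap and were each counted.
Slco1a4 (chr6:141856221-141856470, minus strand): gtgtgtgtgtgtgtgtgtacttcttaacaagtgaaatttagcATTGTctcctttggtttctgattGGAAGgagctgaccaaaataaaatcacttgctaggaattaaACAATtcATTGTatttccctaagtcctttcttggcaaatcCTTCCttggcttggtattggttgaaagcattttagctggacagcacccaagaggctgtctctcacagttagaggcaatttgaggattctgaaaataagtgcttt
Ocln (chr13:100552719-100552968, minus strand): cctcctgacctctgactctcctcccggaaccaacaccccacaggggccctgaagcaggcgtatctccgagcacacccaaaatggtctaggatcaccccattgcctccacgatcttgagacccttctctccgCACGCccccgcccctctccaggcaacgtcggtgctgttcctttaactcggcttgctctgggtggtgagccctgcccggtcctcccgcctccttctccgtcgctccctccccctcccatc
Cldn5 (chr16:18776597-18776846, plus strand): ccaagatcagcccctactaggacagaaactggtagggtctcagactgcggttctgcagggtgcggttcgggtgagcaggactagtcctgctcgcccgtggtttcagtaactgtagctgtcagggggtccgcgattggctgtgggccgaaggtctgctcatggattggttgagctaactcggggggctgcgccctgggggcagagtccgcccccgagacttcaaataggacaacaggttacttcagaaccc
Mfsd2a (chr4:122961189-122961438, minus strand): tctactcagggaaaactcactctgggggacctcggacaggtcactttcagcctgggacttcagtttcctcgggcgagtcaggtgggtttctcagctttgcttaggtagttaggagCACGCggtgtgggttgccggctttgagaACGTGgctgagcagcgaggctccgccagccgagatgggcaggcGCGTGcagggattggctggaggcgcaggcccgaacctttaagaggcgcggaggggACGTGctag
Robo4 (chr9:37401722-37401896, plus strand): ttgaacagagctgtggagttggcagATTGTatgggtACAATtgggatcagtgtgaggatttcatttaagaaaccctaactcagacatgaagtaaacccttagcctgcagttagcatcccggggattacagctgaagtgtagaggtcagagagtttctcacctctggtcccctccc
The Slco1a4 stretch held 2 matches to GGAAG and 3 to ACAAT. The Ocln stretch held 1 match to GCGTG, and Cldn5 held no match to any of the 4 cores. Mfsd2a held 4 matches to the hypoxia response element cores, 2 of ACGTG and 2 of GCGTG. The Robo4 stretch held 2 matches to ACAAT, so matches to that core stood before a gene with lower and a gene with higher levels in hypoxia. Of all 32851 promoters, 2.58% held at least as many hypoxia response element cores as Mfsd2a, and 38.6% held at least 1 such core. Part of the Mfsd2a stretch is also an exon of the gene 4933421A08Rik on the opposite strand. Of the 28 member promoters, 19 held GGAAG, 6 ACAAT, 2 ACGTG and 5 GCGTG. Of all promoters, 64.1% held GGAAG, 27.7% ACAAT, 16.6% ACGTG and 28.2% GCGTG. A match of 5 letters is a description of the sequence and does not show binding.

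Among the junction genes, Ocln had 8.37, 9.06, 7.78 and 8.54 CPM in the hypoxia libraries, against 11.6, 10.6, 11.9 and 13.0 CPM in the normoxia libraries. All hypoxia libraries were below all normoxia libraries, and the spread within each group was small. Occludin spans the membrane at tight junctions, and its gene lies on chromosome 13 (100496507 to 100552718, GRCm38). The log2 fold change was −0.48 ± 0.09 (SE; 95% interval −0.69 to −0.28; edgeR, adjusted p = 0.0371). The call was lost when any library other than hypoxia replicate 4 or normoxia replicate 2 was left out, with an adjusted p of up to 0.142, and the log2 change then stayed between −0.52 and −0.43.

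Cldn5, whose product claudin-5 forms the tight junction strands of brain endothelium, had 32.1, 34.6, 24.3 and 29.6 CPM in hypoxia, against 40.6, 37.2, 36.7 and 37.6 CPM in normoxia. The groups did not overlap, though hypoxia replicate 2 and normoxia replicate 3 lay close together. Its log2 change of −0.34 ± 0.10 (SE) did not pass the test (edgeR, adjusted p = 0.114). Tjp1, the scaffold protein ZO-1, was at 116 ± 3.61 CPM in hypoxia and 124 ± 6.35 CPM in normoxia (n = 4 each, SD), a log2 change of −0.09. Cgnl1, a cytoplasmic junction protein related to cingulin, had 26.8, 33.4, 28.1 and 26.3 CPM in hypoxia and 34.4, 30.7, 32.9 and 37.4 CPM in normoxia. Hypoxia replicate 2 was the only hypoxia library above a normoxia library, and the gene had a log2 change of −0.24 ± 0.09 (SE; edgeR, adjusted p = 0.192).

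No adhesion molecule of the endothelial cell border was called. Cdh5, or VE-cadherin, the adherens junction protein of endothelium, was at 18.3, 19.7, 17.3 and 16.3 CPM in hypoxia and 21.5, 16.1, 19.4 and 20.1 CPM in normoxia. Pecam1, an adhesion molecule of the same border, was at 25.4, 30.2, 22.5 and 24.5 CPM in hypoxia and 26.3, 20.6, 25.4 and 25.3 CPM in normoxia. Both genes had overlapping groups, with normoxia replicate 2 the lowest of all 8 libraries in each. Esam, a further junctional adhesion molecule, was at 15.6 ± 0.154 CPM in hypoxia and 16.1 ± 0.898 CPM in normoxia (n = 4 each, SD). Its libraries were at 15.6, 15.8, 15.7 and 15.4 CPM in hypoxia and 17.1, 15.5, 16.5 and 15.2 CPM in normoxia, and the 95% interval of its log2 change ran from −0.19 to 0.10. Icam2, an adhesion molecule that leukocytes bind, was under 4 CPM in every library, with a log2 change of 0.29 ± 0.19 (SE; edgeR, adjusted p = 0.435). Of the 8 junction and adhesion members, 1 was called lower and 0 higher. An unadjusted p under 0.05 was found in 3 of them and in 19.3% of all genes.

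The transporters split between directions. Slco1a4 had 36.9, 42.4, 41.5 and 47.5 CPM in the hypoxia libraries, against 63.7, 51.7, 56.0 and 62.6 CPM in the normoxia libraries. The highest hypoxia library stayed below the lowest normoxia library. The gene encodes Oatp1a4, which moves organic anions across the barrier, and lies on chromosome 6 (141805440 to 141856199). Its log2 change was −0.48 ± 0.09 (SE; 95% interval −0.68 to −0.27; edgeR, adjusted p = 0.0369). With 1 library left out it was called in 2 of 8 fits, those without hypoxia replicate 4 or normoxia replicate 2, with log2 changes from −0.54 to −0.42 and an adjusted p of up to 0.142.

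Mfsd2a lay on the other side. It carries lysophosphatidylcholine with omega-3 fatty acids into the brain and restrains vesicle transport through the endothelial cell. It had 32.4, 35.8, 33.0 and 29.9 CPM in hypoxia, against 25.6, 28.7, 21.4 and 20.4 CPM in normoxia, with no overlap. The log2 change was 0.45 ± 0.11 (SE; edgeR, adjusted p = 0.0732), short of the threshold. Without normoxia replicate 2, its highest normoxia library, it was 0.55 with an adjusted p of 0.0156. Mfsd2a was called in no other fit with 1 library left out. Over these 8 fits the log2 change went down to 0.38 and the adjusted p up to 0.204. Slc7a5, the light subunit of the large neutral amino acid carrier LAT1, had 92.5, 90.8, 89.8 and 76.8 CPM in hypoxia, against 67.4, 78.4, 64.1 and 67.4 CPM in normoxia. Hypoxia replicate 4 fell below normoxia replicate 2, and the other libraries were separate. Its log2 change was 0.33 ± 0.08 (SE; edgeR, adjusted p = 0.0626). It was called higher without hypoxia replicate 4 or normoxia replicate 2, and in no other fit with 1 library left out. Other brain cells make Slc7a5 as well.

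The remaining transporters were not called. Slc7a1, a cationic amino acid carrier, was at 77.9 ± 1.45 CPM in hypoxia and 71.8 ± 7.69 CPM in normoxia (n = 4 each, SD). The efflux pump genes Abcb1a, which encodes P-glycoprotein, and Abcg2, the breast cancer resistance protein, had log2 changes of −0.18 ± 0.09 and −0.06 ± 0.07 (SE). Abcb1a had 36.3, 40.3, 32.6 and 37.5 CPM in hypoxia and 47.1, 38.6, 38.4 and 42.6 CPM in normoxia, with hypoxia replicate 2 above 2 of the normoxia libraries. The interval of Abcg2 ran from −0.22 to 0.10. Slc22a8, an organic anion carrier that choroid plexus and meninges also make, was at 24.6 ± 4.47 CPM in hypoxia and 29.8 ± 6.03 CPM in normoxia. The 8 genes listed as meningeal fibroblast markers summed to 184 to 255 CPM in hypoxia and 178 to 275 CPM in normoxia. The sums were highest in hypoxia replicate 2 and normoxia replicate 4, the libraries where Slc22a8 was also highest in each group. Pdgfra alone made up 93.3 to 97.8 CPM of the sums in hypoxia and 72.1 to 85.1 CPM in normoxia. It was called higher (log2 0.26, edgeR adjusted p = 0.0462), and in 2 of 8 fits with 1 library left out. The other 7 genes of the list had negative log2 changes, with 0 called lower, so the sums mix opposite directions. Which cells made Pdgfra was not tested. The part of meningeal cells in the level of Slc22a8 was not tested. Slc38a5, a glutamine carrier, was under 5 CPM in every library, and its interval of −0.45 to 0.59 leaves a wide range of changes undetectable at this depth. Of the 8 transporters, 1 was called lower and 0 higher, and 4 had a positive log2 change.

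**Figure D2:**
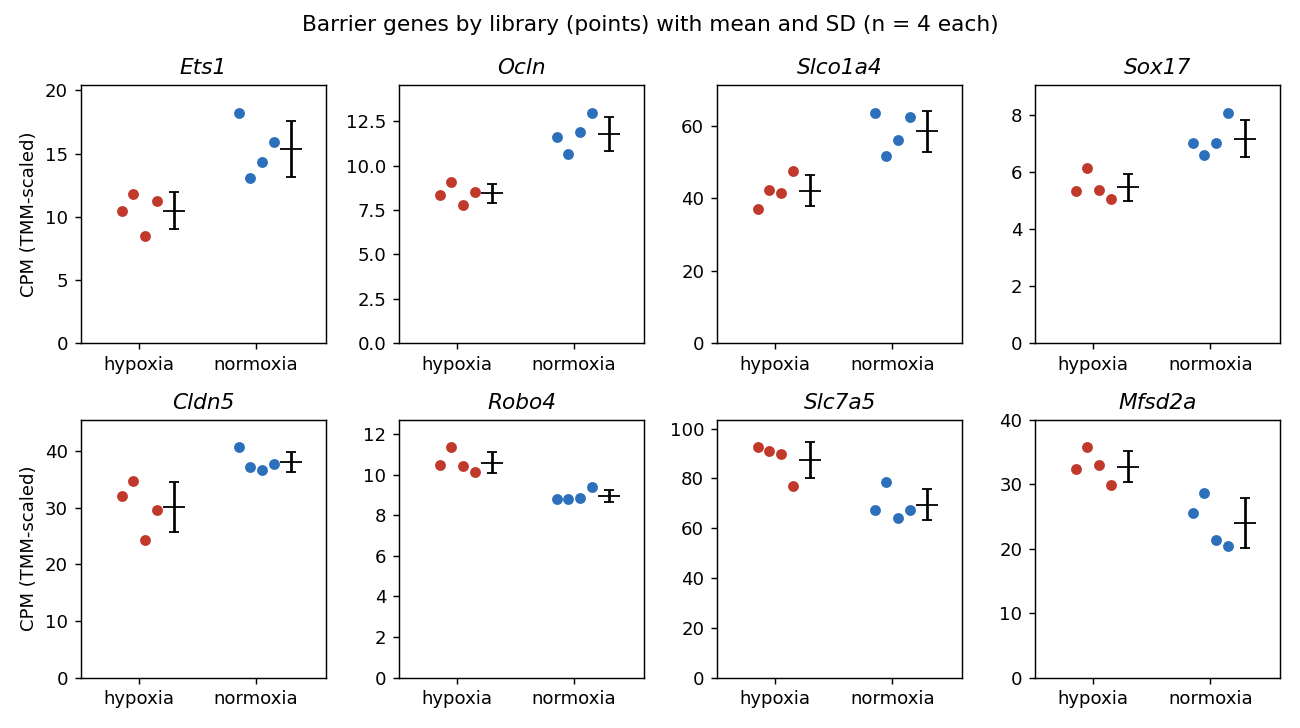
TMM-scaled CPM (vertical axes, from 0) of the 7 members whose groups did not overlap and of Slc7a5, with 1 point per library and the mean ± SD of each group (n = 4). Slco1a4 runs from 36.9 to 47.5 CPM in hypoxia and from 51.7 to 63.7 CPM in normoxia, and Mfsd2a lies higher in all 4 hypoxia libraries.

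All 6 transcription factors had a negative log2 change, with a median of −0.32, and none was called. Over all genes tested the median was −0.01. Ets1, an ETS factor of endothelium that lymphocytes also make, had 10.4, 11.8, 8.46 and 11.2 CPM in hypoxia, against 18.2, 13.1, 14.4 and 15.9 CPM in normoxia. The groups did not overlap. The log2 change was −0.56 ± 0.13 (SE; edgeR, adjusted p = 0.0642). It was called lower without normoxia replicate 2, at an adjusted p of 0.029, and in no other fit with 1 library left out.

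The SOX genes of the F group, which act in vessel formation, were low. Sox17 had 5.32, 6.13, 5.36 and 5.04 CPM in hypoxia, against 7.01, 6.59, 7.01 and 8.08 CPM in normoxia, without overlap (log2 −0.39 ± 0.11, SE; edgeR, adjusted p = 0.0981). Sox18 had 2.90, 3.41, 2.22 and 5.44 CPM in hypoxia, against 7.29, 4.63, 5.46 and 5.40 CPM in normoxia. Hypoxia replicate 4 lay within the normoxia range, and the other hypoxia libraries lay below it. The log2 change was −0.71 ± 0.26 (SE; edgeR, adjusted p = 0.183), the most negative of the members. Sox18 was called lower without hypoxia replicate 4, at an adjusted p of 0.041, and in no other fit with 1 library left out. Over these 8 fits its log2 change went up to −0.54 and the adjusted p up to 0.395. With hypoxia replicate 4 and normoxia replicate 2 left out together, its log2 change was −1.09. Sox7 had 2.22, 3.36, 1.74 and 1.65 CPM in hypoxia and 2.63, 2.13, 2.41 and 2.27 CPM in normoxia, and its groups overlapped fully.

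Erg and Fli1, the ETS factors that hold endothelial identity, had log2 changes of −0.19 ± 0.17 and −0.25 ± 0.21 (SE). Erg was at 4.69 ± 0.721 CPM in hypoxia and 5.34 ± 0.988 CPM in normoxia, and Fli1 at 3.47 ± 0.903 and 4.11 ± 0.682 CPM in hypoxia and normoxia (n = 4 each, SD). In both genes the groups overlapped.

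Among receptors and signalling genes, Robo4, a guidance receptor that steadies vessels, had 10.5, 11.4, 10.4 and 10.1 CPM in hypoxia, against 8.79, 8.83, 8.84 and 9.40 CPM in normoxia. The groups did not overlap, and the libraries of each group lay close together. The log2 change was 0.24 ± 0.08 (SE; edgeR, adjusted p = 0.138). Tie1, a receptor of the angiopoietin system, had 13.1, 16.8, 13.4 and 12.1 CPM in hypoxia and 17.3, 15.6, 17.2 and 15.7 CPM in normoxia. Hypoxia replicate 2 reached into the normoxia range. Its log2 change was −0.25 ± 0.11 (SE; edgeR, adjusted p = 0.236).

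Ptprb, a phosphatase that restrains signalling by the Tie2 receptor, had a log2 change of 0.16 ± 0.10 (SE) and Eng, the TGF-beta co-receptor endoglin, −0.04 ± 0.13. Nos3, the endothelial nitric oxide synthase, was at 11.6 ± 1.49 CPM in hypoxia and 14.1 ± 1.84 CPM in normoxia (n = 4 each, SD; log2 −0.28; edgeR, adjusted p = 0.25). Its libraries were at 11.99, 13.4, 9.81 and 11.2 CPM in hypoxia and 14.5, 11.5, 15.8 and 14.7 CPM in normoxia, and normoxia replicate 2 was within the hypoxia range. Egfl7, a secreted endothelial protein whose gene hosts the microRNA gene Mir126a, had 16.8, 18.8, 16.7 and 16.0 CPM in hypoxia, against 20.7, 14.5, 20.8 and 20.6 CPM in normoxia. Without normoxia replicate 2, which was the lowest of all libraries, its log2 change was −0.28 with an adjusted p of 0.0674. Exons of Egfl7, Eng, Nos3, Sox17 and Abcb1a overlap a gene on the opposite strand, and Egfl7 also overlaps Gm20532 on its own strand. Since the strand setting of the counting is not given in the sources used here, these values are uncertain. None of the 6 receptors and signalling genes was called, and 3 had an unadjusted p under 0.05, a limit that 19.3% of all genes passed.

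The surface glycoproteins were close between the groups. Ly6c1 was at 26.2 ± 0.778 CPM in hypoxia and 22.9 ± 2.56 CPM in normoxia, and Ly6a at 18.1 ± 0.683 and 16.5 ± 1.81 CPM in hypoxia and normoxia (n = 4 each, SD). Both belong to the Ly6 family of lipid-anchored proteins, whose members have similar sequences, so reads may have been split among them. Ly6c1 had 26.2, 26.7, 26.7 and 25.1 CPM in hypoxia and 26.1, 23.9, 21.0 and 20.8 CPM in normoxia, so that normoxia replicate 1 lay within the hypoxia range (log2 0.19 ± 0.08, SE; edgeR, adjusted p = 0.248). Podxl and Emcn, which encode the sialomucins podocalyxin and endomucin of the vessel surface, had log2 changes of 0.14 ± 0.12 and −0.25 ± 0.16 (SE). Itm2a, a membrane protein abundant in brain endothelium, was at 57.5 ± 6.60 CPM in hypoxia and 59.5 ± 5.06 CPM in normoxia. None of these 5 genes was called.

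Levels of different genes were compared per kilobase of exon. Itm2a was the most abundant member at 33.0 ± 3.79 CPM per kilobase in hypoxia and 34.1 ± 2.90 CPM per kilobase in normoxia (n = 4 each, SD). In normoxia Cldn5 came next, at 26.9 ± 1.24 CPM per kilobase, and then Slc7a5 at 18.7 ± 1.68. In hypoxia Slc7a5 was ahead of Cldn5, at 23.6 ± 1.94 and 21.3 ± 3.12 CPM per kilobase. Slco1a4 was at rank 12 of 33 in hypoxia and rank 8 in normoxia, and Ets1 at rank 29 in hypoxia and rank 25 in normoxia. Sox7 was the lowest in both groups, at 0.68 and 0.716 CPM per kilobase in hypoxia and normoxia. In the normoxia order, 26 of 32 neighbouring pairs had overlapping libraries, so most neighbours cannot be ranked. With the longest transcript as the length, ranks moved by at most 6 places, and Egfl7 and Podxl moved most. Ly6c1 then took rank 2 in normoxia, at 27.2 CPM per kilobase, ahead of Cldn5, so the order below Itm2a depends on the length used.

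**Figure D3:**
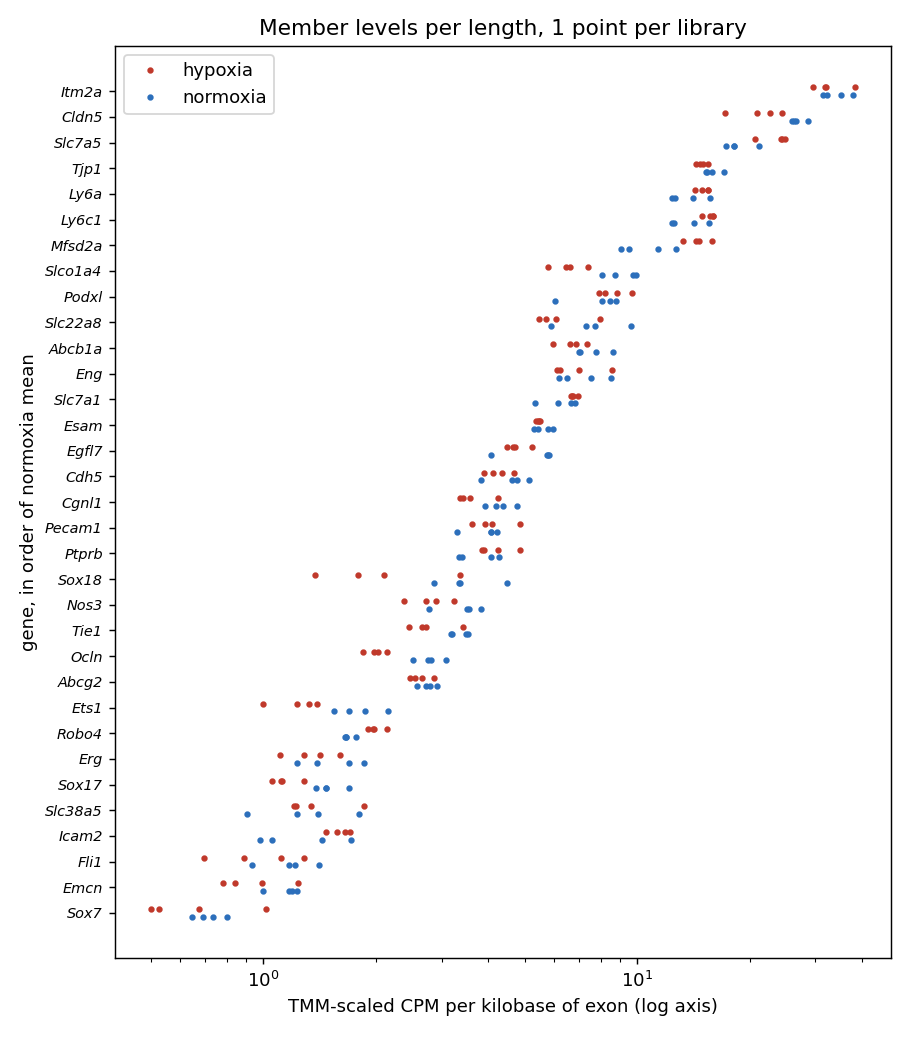
TMM-scaled CPM per kilobase of exon (log axis) of the 33 members, 1 point per library, hypoxia in red and normoxia in blue, in the order of the normoxia mean. Itm2a and Sox7 stand at the ends, 47.7-fold apart in normoxia, and neighbouring genes mostly overlap.

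The members varied together between libraries of the same group. Hypoxia replicate 2 was the highest hypoxia library in 28 of the 33 members, and normoxia replicate 2 the lowest normoxia library in 22. Averaged over the members, log2 levels relative to the mean of the 8 libraries were −0.07, 0.13, −0.16 and −0.10 in hypoxia replicates 1 to 4, and 0.17, −0.10, 0.01 and 0.11 in normoxia replicates 1 to 4. The groups overlapped. Oligodendrocyte markers summed to 9763 CPM in hypoxia replicate 2 and 6601 to 6891 CPM in the other hypoxia libraries. In normoxia they summed to 11363 CPM in replicate 1, the library with the highest member average, and to 6392 CPM in replicate 2, the lowest. The other libraries did not follow this order. Normoxia replicates 3 and 4 had 8347 and 7156 CPM, with member averages of 0.01 and 0.11. Hypoxia replicate 1 had the lowest sum of its group, 6601 CPM, but not the lowest member average. Pericyte markers summed to 262 to 308 CPM in both groups, with hypoxia replicate 2 and normoxia replicate 1 the highest. The part of cell composition in these shared shifts was not tested.

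**Figure D4:**
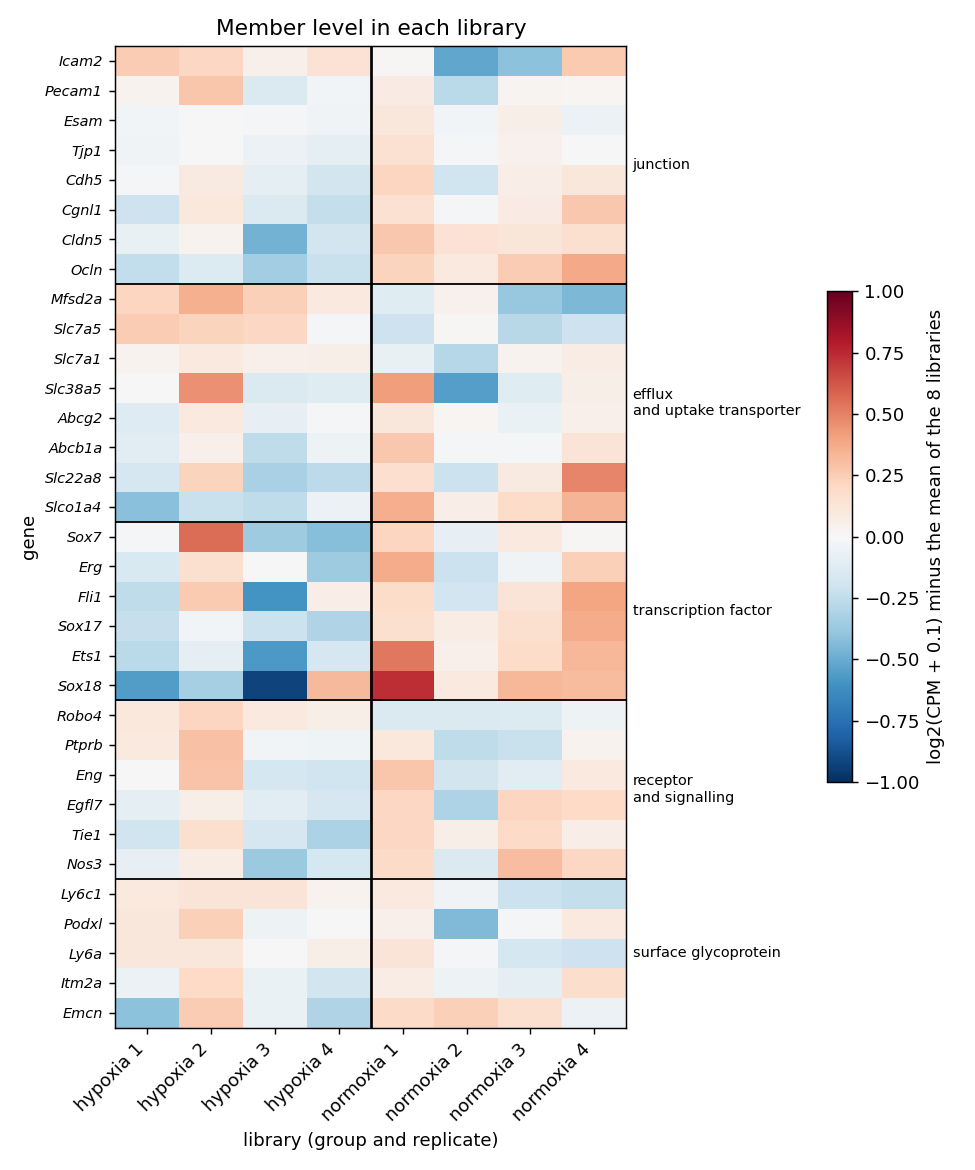
Log2(CPM + 0.1) of each member minus its mean over the 8 libraries (colour, from −1 to 1), genes in rows by role and libraries in columns, hypoxia left of normoxia. Hypoxia replicate 2 is redder than the rest of its group and normoxia replicate 2 bluer, while Ocln, Slco1a4 and Ets1 are blue across the hypoxia columns.

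To give a common base within a library, each member was set against 6 pan-endothelial core genes, Cldn5, Pecam1, Tie1, Cdh5, Egfl7 and Esam. The log2 changes of these 6 ran from −0.34 to 0.07, so the core was not shown to measure the endothelial fraction. For members that other cells make too, a ratio to the core does not describe endothelial cells alone. The mean log2 level of the core was 4.27 ± 0.12 in hypoxia and 4.41 ± 0.12 in normoxia (n = 4 each, SD), a difference of −0.14, which by itself moves every ratio to the core up. Relative to it, 6 of the other 27 members lay higher in every hypoxia library, with differences of the log2 ratio of 0.59 for Mfsd2a, 0.47 for Slc7a5, 0.38 for Robo4, 0.30 for Ptprb, 0.29 for Podxl and 0.26 for Slc7a1. Lower in every hypoxia library were 3, Ets1 at −0.41, Ocln at −0.34 and Sox17 at −0.25. Of all genes tested, 9.51% lay higher and 1.02% lower without overlap on this scale. Podxl and Mfsd2a show how close the hypoxia libraries could lie on this scale. Podxl had log2 ratios of 1.33, 1.29, 1.27 and 1.31 in hypoxia, against 1.02, 0.81, 1.02 and 1.17 in normoxia. Mfsd2a had 0.75, 0.72, 0.87 and 0.72 in hypoxia, against 0.16, 0.61, −0.02 and −0.06 in normoxia. These ratios are descriptions without a test, since the core genes are members too. The difference of Slco1a4 was −0.34, and its groups overlapped on this scale. Which members separated depended on the base. Against the median of the other members, Pecam1 was also higher and Slco1a4 and Cldn5 also lower in every hypoxia library, with differences of 0.18, −0.37 and −0.24, while Slc7a5 overlapped. That made 6 of 33 members higher and 5 lower, where 9.44% of all genes were higher and 1.52% lower against the median of the members.

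**Figure D5:**
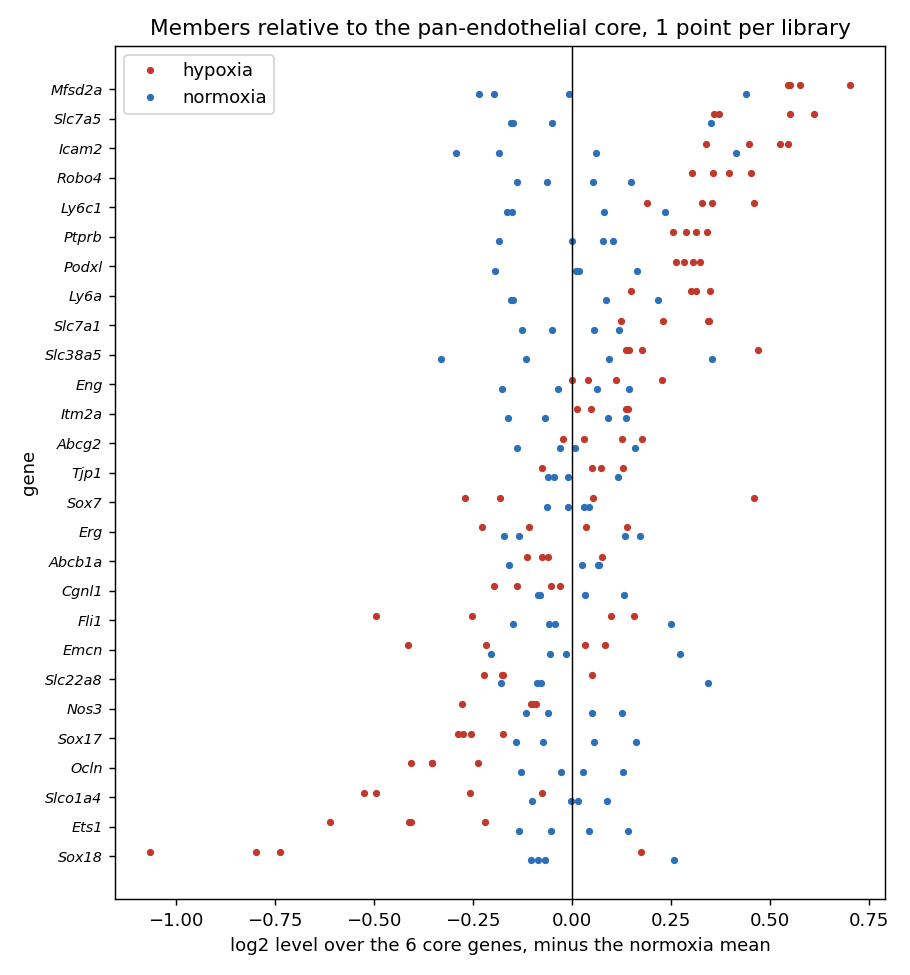
Log2 level of 27 members over the mean of the 6 core genes in the same library, minus the normoxia mean of that gene (horizontal axis), 1 point per library, hypoxia in red and normoxia in blue. Mfsd2a and Slc7a5 lie at the upper end, and Ets1 and Ocln lie below normoxia in all 4 hypoxia libraries.

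Barrier genes outside the 33 were taken from lists of further transporters, junction genes, pan-endothelial genes and the Wnt pathway. Of 25 further transporters and receptors, 1 was called higher and 0 lower, with a median log2 change of 0.03. The called gene was Slc2a1, the glucose transporter GLUT1, which astrocytes also make. It had 175, 200.1, 179 and 139.9 CPM in hypoxia, against 114, 125, 96.0 and 92.0 CPM in normoxia (log2 0.70 ± 0.12, SE; edgeR, adjusted p = 0.0293). It was called in 2 of 8 fits with 1 library left out, with an adjusted p of up to 0.12, and its exons overlap Gm12868 on the opposite strand. Slc3a2, the heavy subunit that pairs with Slc7a5, had a log2 change of 0.01 ± 0.05 (SE) and an interval of −0.10 to 0.12.

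Of 19 Wnt pathway genes, 1 was called higher and 1 lower, and 16 had a negative log2 change, with a median of −0.21. Of all 17047 genes tested, 2.15% were called and 8827 had a negative log2 change. Fzd4, the receptor for norrin and Wnt ligands on brain endothelium, had 21.6, 22.4, 21.7 and 16.8 CPM in hypoxia, against 13.8, 15.3, 13.4 and 13.8 CPM in normoxia, without overlap. It rose by a log2 of 0.55 ± 0.10 (SE; edgeR, adjusted p = 0.0313). Apcdd1, an inhibitor of Wnt signalling that Wnt itself induces, fell to 21.1 ± 1.77 CPM in hypoxia, against 34.4 ± 8.05 CPM in normoxia (n = 4 each, SD; log2 −0.70 ± 0.15, SE; edgeR, adjusted p = 0.0497). Ndp, the gene of norrin itself, was at 5.48 ± 0.828 CPM in hypoxia and 8.53 ± 1.44 CPM in normoxia, with an adjusted p of 0.065 by edgeR. Apcdd1, Ndp and Tcf7, a transcription factor of the pathway, were all highest in normoxia replicate 2. With 1 library left out, Fzd4 was called in 2 of 8 fits and Apcdd1 in 1 of 8. Other brain cells make most of these genes too.

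Beside the counts that follow, 19.3% of all genes tested had an unadjusted p under 0.05. Of 18 further junction genes tested, 0 were called by edgeR, with 4 at an unadjusted p under 0.05. The smallest p was that of Cldn12, a claudin found in many tissues (log2 −0.29 ± 0.07 SE, edgeR adjusted p = 0.0816). Of 25 further pan-endothelial genes, 0 were called by edgeR and 9 had an unadjusted p under 0.05, with 10 positive and 15 negative log2 changes and a median of −0.05. The smallest p was that of Myct1, at 0.193, 0.107, 0.29 and 0.499 CPM in hypoxia and 1.36, 0.585, 1.09 and 0.817 CPM in normoxia (edgeR, adjusted p = 0.0642). Myct1 had only 2 to 29 counts in a library, near the floor, and was called lower in 2 of 8 fits with 1 library left out. Without hypoxia replicate 4 and normoxia replicate 2, edgeR called 2 of the pan-endothelial genes higher and 1 lower, and 1 junction gene higher and 2 lower. That fit called more genes of all kinds, 1195 of 17132 tested, with 456 higher and 739 lower.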

How the data were processed

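The authors deposited 1 table of raw read counts, with Ensembl genes in lines and libraries in columns. Per the submitters' processing notes, featureCounts, HISAT2 2.0.4, Trimmomatic, SAMtools and DESeq2 were used with the build mm10. How reads were assigned (annotation release, strand setting, reads that map to several places) is not given in the sources used here. Per the labels' protocols, the library kit was TruSeq Stranded mRNA. Each column carries the short name that GEO's description of its sample holds. Symbols, positions, exon lengths and overlaps come from GENCODE M21 (GRCm38, the assembly of mm10), which left 260 of 55487 genes without a symbol.

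The main test was edgeR's quasi-likelihood F test (4.0.16, R 4.3.3) with TMM scaling and a term for group alone, on the 17047 genes that filterByExpr keeps at a minimum count of 10 and a minimum total of 15. A gene was called at p under 0.05 after Benjamini-Hochberg adjustment across these genes. Log2 fold changes are hypoxia over normoxia. Levels relative to other genes used log2(CPM + 0.1). In simulated counts of 17047 genes for this comparison, the test recovered 42% of those given a log2 change of 0.5 and 86% of those given 1. Alternatives used DESeq2 1.42.0, limma-voom (limma 3.58.1), other scalings and filters, robust estimation, a replicate block, and each library left out.

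The design text calls the libraries biological replicates without naming animals, and p-values measure the spread between them. Pairs within a group differed by a chi-square of 4.37 to 34.6 per gene, more than sampling noise. The members, the gene lists and the choices of tests and libraries left out were made with earlier results of these data known. Values in every library are given for members that were called or without overlap, for the core genes and for up to 10 further members by smallest p. Of each list of barrier, endothelial and pericyte genes the called genes, or else the gene with the smallest p, were named. Markers of other cell types, where given, were summed. Ndp, Tcf7, Slc3a2, Nr2f2, Gja5, Vcam1, Icam1, Sele, Selp, Ptgs2, Pdgfra and the pericyte genes other than Kcnj8 were added after their values were seen.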

Additional observations from a re-analysis of the deposited data

Results flagged for a closer look

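In 66 groups of 4 libraries (33 members in each of 2 groups), 2 values lay far from the other 3 of their group by Dixon's ratio, where chance gives about 1 in 20. Egfl7 was at 14.5 CPM in normoxia replicate 2, against 20.6 to 20.8 CPM in the other normoxia libraries. That library was also the lowest of its group in 22 of the 33 members. Robo4 was at 9.40 CPM in normoxia replicate 4, against 8.79 to 8.84 CPM in the rest of its group, and stayed below the 10.1 CPM of the lowest hypoxia library.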

How the results depend on the processing

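The direction of 28 of the 33 members held in every alternative, and of 594 member values under alternatives 556 kept direction and side of the threshold, 14 lost the call, 13 gained one and 11 reversed. The reversals were all of members with changes near 0, and the cause was not tested. With 1 library left out, the log2 change ran from −0.013 to 0.13 for Pecam1, −0.13 to 0.0082 for Itm2a, −0.33 to 0.043 for Sox7, −0.15 to 0.054 for Eng and −0.088 to 0.25 for Slc38a5. Slc38a5 was at −0.020 without hypoxia replicate 4 and normoxia replicate 2 together. Members called higher, 0 in the fit reported, were 1 with upper quartile scaling, 2 with DESeq2, 0 to 2 with 1 library left out and 2 without that pair of libraries. Members called lower, 2 in the fit reported, were 0 to 3 with 1 library left out and 4 without the pair. All genes called, 366 in the fit reported, were 1008 with DESeq2, 26 to 693 with 1 library left out and 1195 without the pair. Of the 366, 42.6% were higher, against 29.9% with scaling by library size alone, 34.1% without hypoxia replicate 4 and 48.7% without normoxia replicate 2. In the 6 fits without another single library the share was 84% to 94.1%, and with the replicate block 95.2%, of far fewer calls. The shared replicate numbers do not mark a shared animal or day in the labels. Deviations from the group means of same-numbered libraries had correlations of −0.11 to 0.04, and 0 of 4 hypoxia libraries correlated best with their own number. With the replicate block, 21 genes were called, and 0 members higher and 0 lower. The 7 members with under 100 counts in some library carry the most counting error.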

Other observations

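Genes that mark parts of the vessel tree were not called with all 8 libraries. Beside the counts below, 19.3% of all genes tested had an unadjusted p under 0.05. Of 10 arterial genes, 0 were called by edgeR and 2 had an unadjusted p under 0.05. Hey1, a Notch target of arteries that other brain cells also make, was at 40.6 ± 1.09 CPM in hypoxia and 34.3 ± 4.08 CPM in normoxia (n = 4 each, SD), without overlap, and an edgeR adjusted p of 0.159. Gja5, a gap junction protein of arterial endothelium, lay the other way without overlap. It was at 0.451 ± 0.213 CPM in hypoxia and 1.04 ± 0.388 CPM in normoxia (log2 −1.19, edgeR adjusted p = 0.16). Gja5 had only 3 to 30 counts in a library, and its exons overlap Gpr89 on the opposite strand, so its values are uncertain. Of 7 venous genes tested, 0 were called by edgeR and 2 had an unadjusted p under 0.05. The smallest p was that of Il1r1, the interleukin-1 receptor, at 6.63 ± 0.71 CPM in hypoxia and 4.68 ± 0.722 CPM in normoxia (log2 0.50; edgeR, adjusted p = 0.0977). Nr2f2, a transcription factor of venous identity that neurons also make, had a log2 change of −0.46 (edgeR, adjusted p = 0.142). It was called lower in 1 of 8 fits with 1 library left out, where the adjusted p ran from 0.00284 to 0.343, and at an adjusted p of 0.00228 without hypoxia replicate 4 and normoxia replicate 2. Normoxia replicate 2, at 36.1 CPM, was the lowest normoxia library, with the others at 55.2 to 61.6 CPM.

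Of 12 genes of endothelial activation and leukocyte adhesion, 6 passed the filter and 0 were called by edgeR, with 2 at an unadjusted p under 0.05. Of the 6, 5 had a negative and 1 a positive log2 change. The 2 were Nfkbia, the positive one, and Ptgs2. Ptgs2 was at 1.42 ± 0.451 CPM in hypoxia and 2.94 ± 1.34 CPM in normoxia (log2 −1.04, edgeR adjusted p = 0.138). Sele and Selp, the selectins that capture leukocytes, were at most at 0.145 and 0.318 CPM in any library. The adhesion molecules Vcam1 and Icam1 had log2 changes of −0.01 and −0.14. Nfkbia, the inhibitor of NF-kB, was at 34.5, 36.4, 34.4 and 23.1 CPM in hypoxia and 13.6, 25.2, 15.6 and 15.8 CPM in normoxia, with hypoxia replicate 4 and normoxia replicate 2 crossing (edgeR, adjusted p = 0.0621, and called in 2 of 8 fits with 1 library left out). Plvap, the diaphragm protein of the leaky vessels of the median eminence, was at 11.5 ± 1.09 CPM in hypoxia and 9.23 ± 1.40 CPM in normoxia (log2 0.32; edgeR, adjusted p = 0.205).

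Of 8 pericyte genes, Kcnj8, a subunit of the ATP-sensitive potassium channel, was called higher, at 6.55 ± 1.30 CPM in hypoxia and 3.30 ± 0.626 CPM in normoxia (log2 0.98 ± 0.19, SE; edgeR, adjusted p = 0.0371), and in 2 of 8 fits with 1 library left out. Against 19.3% of all genes tested, 5 of the 8 genes had an unadjusted p under 0.05. Beside Kcnj8 these were Higd1b, Abcc9 and Cspg4 with log2 changes of 0.50, 0.23 and 0.17, and Anpep with −0.60. The other 3, Pdgfrb, Rgs5 and Vtn, had log2 changes of −0.14, −0.06 and −0.17. Which cells made the 8 genes cannot be told from bulk RNA.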
